A study of Homo sapiens with 12 samples.

Results

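A set of 9 genes of plasminogen activation, coagulation and protease inhibition was followed through the 12 RNA-seq libraries of HL-60/S4, an established human promyelocytic leukemia line: PLAU, PLAUR, F3, THBD, SERPINB1, SERPINB2, SERPINB8, SERPINB9 and SERPINA1. They were found by symbol among the 58288 genes of the deposited count table, where all 9 have a row. Undifferentiated cells (promyelocytes) and cells given 1 µM all-trans retinoic acid (ATRA) for 4 days (granulocytes) each received 16 ng/mL TNF-α or the same volume of water (vehicle) for 2 h, with 3 libraries in each of the 4 groups. All cells were at passage 8 in calcium-supplemented medium, and each library came from its own flask of the same line, so replicates measure the spread between flasks. Promyelocytes and granulocytes were treated as separate experiments. The ATRA-treated cells are a leukemia line with a granulocytic phenotype, not blood granulocytes.

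Plasminogen activation begins when urokinase, the serine protease encoded by PLAU, cuts plasminogen into plasmin, which dissolves fibrin and extracellular matrix. The urokinase receptor, encoded by PLAUR, holds this protease at the cell surface and is carried by migrating leukocytes. Tissue factor, the product of F3, is the cell-surface receptor for factor VII and starts the extrinsic coagulation pathway, while thrombomodulin (THBD) turns thrombin towards activation of protein C. Serpins are suicide inhibitors of proteases. SERPINB1 inhibits the neutrophil granule proteases elastase, proteinase 3 and cathepsin G, SERPINB2 (plasminogen activator inhibitor type 2) inhibits urokinase, SERPINB8 inhibits furin, SERPINB9 inhibits granzyme B, and SERPINA1 (alpha-1-antitrypsin) is the main plasma inhibitor of elastase. The clade B serpins named here act largely inside cells, whereas SERPINA1 is secreted.

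In the annotation used for counting (hg38), the urokinase gene PLAU lies at chr10:73909177-73917497 on the plus strand and PLAUR at chr19:43646095-43670547 on the minus strand. F3 lies at chr1:94529225-94541800 and THBD at chr20:23045633-23049741, both on the minus strand. SERPINB1 (chr6:2832332-2842006) and SERPINB9 (chr6:2887266-2903280) are neighbours on the minus strand, SERPINB2 (chr18:63871692-63903890) and SERPINB8 (chr18:63969925-64019779) lie on the plus strand, and SERPINA1 is at chr14:94376747-94390693 on the minus strand. Counts were summed over the exons of each gene. Of the exonic bases of SERPINB2, 19.9% (547 of 2748) are shared with SERPINB10 on the same strand, and of those of SERPINB8, 6.31% (370 of 5868) are shared with HMSD, and read pairs that match 2 genes are left out by the counter.

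RefSeq (GRCh38.p14) gives 10 promoter entries for 8 of the 9 genes. The 250 bases before the transcription start are shown for the genes whose window held a binding motif of AP-1, a transcription factor family that TNF receptor signaling activates through MAP kinases. Of these 4, F3, PLAUR and SERPINB8 were called higher in granulocytes, and SERPINB2 was called lower in promyelocytes on few reads. PLAU and SERPINB1, whose windows lack the motif, were also called higher in granulocytes. Any part of the motif in these responses was not tested. The capitals mark the AP-1 motif (TGANTCA, searched on both strands; no AP-1 match overlaps another motif searched). The regions are chr1:94541760-94542009 (minus strand) for F3, chr19:43670170-43670419 (minus strand) for PLAUR, chr18:63969831-63970080 (plus strand) for SERPINB8 and chr18:63887455-63887704 (plus strand) for SERPINB2.
F3: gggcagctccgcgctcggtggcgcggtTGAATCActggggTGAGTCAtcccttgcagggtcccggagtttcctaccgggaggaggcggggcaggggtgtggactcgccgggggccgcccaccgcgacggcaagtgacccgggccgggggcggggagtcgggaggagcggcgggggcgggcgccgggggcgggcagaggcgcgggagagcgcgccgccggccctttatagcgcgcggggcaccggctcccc
PLAUR: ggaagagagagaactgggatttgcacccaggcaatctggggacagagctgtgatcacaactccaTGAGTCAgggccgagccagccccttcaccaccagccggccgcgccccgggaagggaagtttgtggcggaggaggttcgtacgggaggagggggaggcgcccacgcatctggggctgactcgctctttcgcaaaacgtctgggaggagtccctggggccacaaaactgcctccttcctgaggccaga
SERPINB8: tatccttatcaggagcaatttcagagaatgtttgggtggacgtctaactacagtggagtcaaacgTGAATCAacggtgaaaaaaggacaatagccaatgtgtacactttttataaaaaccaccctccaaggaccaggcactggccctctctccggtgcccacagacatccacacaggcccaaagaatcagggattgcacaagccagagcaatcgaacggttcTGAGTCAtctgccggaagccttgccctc
SERPINB2: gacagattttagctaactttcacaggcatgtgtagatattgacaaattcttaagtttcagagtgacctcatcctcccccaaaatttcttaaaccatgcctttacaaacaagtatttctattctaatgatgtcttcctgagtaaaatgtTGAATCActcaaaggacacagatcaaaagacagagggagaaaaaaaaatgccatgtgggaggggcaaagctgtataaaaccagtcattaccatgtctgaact

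The F3 window held TGAATCA at 223 to 217 and TGAGTCA at 210 to 204 bases before the start. PLAUR held a single TGAGTCA at 186 to 180, SERPINB8 held TGAATCA at 185 to 179 and TGAGTCA at 28 to 22, and SERPINB2 held TGAATCA at 102 to 96 and a TATA box (TATAAA, given strand) at 30 to 25. TATAAA was also found in SERPINB8 at 140 to 135 and in SERPINB9 at 30 to 25, and is present in 6.80% of all windows. The nuclear receptor motif AGGTCA (either strand, 12.1% of all windows) was found in SERPINB2, SERPINB9 and an entry of SERPINA1. Of all 35116 promoter windows of this length, 6.57% held TGANTCA. The κB consensus (GGGRNWYYCC), the binding motif of NF-κB, searched on both strands, was present in 5.21% of all windows and matched none of the 10 entries. That search required every letter of the consensus. The run cggagtttcc in the F3 window departs from it only at the first letter and was therefore not counted. Near matches were not searched for in the other entries or over all windows, so no share stands beside this run. F3 also held 4 GC boxes (GGGCGG, either strand; present in 42.6% of all windows) and had 78.0% G and C, against a median of 58.0% over all windows. The entries of PLAU, SERPINB1, SERPINB9 and SERPINA1 held no TGANTCA. A match is a run of letters in this window and was not tested as a bound site.

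Library totals lay between 22829189 and 31895061 read pairs assigned to genes, with a median of 28233190. Levels are given as CPM (read pairs scaled to a fixed library total), with TMM, a normalization that sets the bulk of genes equal between libraries. A count of 3 read pairs, taken as the floor of detection, corresponds to 0.0945 to 0.136 CPM, which covers counting error only. A gene was called changed when the adjusted p of edgeR's quasi-likelihood test over all genes tested was below 0.05. Markers fixed for promyelocytes (MPO, ELANE, PRTN3, AZU1, CTSG) summed to 7320 to 8140 CPM in vehicle promyelocytes and 2130 to 2340 CPM in vehicle granulocytes. Most of this was MPO, with means of 6420 and 2020 CPM. Markers of ATRA-induced granulocytes (ITGAM, CD38, CYBB, FPR1, CSF3R) summed to 145 to 153 CPM and 3520 to 3690 CPM, so both sets of libraries matched their labels.

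With TNF-α, F3 rose in both cell types, PLAUR, PLAU, SERPINB1 and SERPINB8 were called higher in granulocytes, and SERPINA1 was called higher in promyelocytes. SERPINB2 was low everywhere and was called lower in TNF-α treated promyelocytes, and THBD and SERPINB9 were at or below the floor in every library. In promyelocytes 7 of the 9 genes were tested, of which 2 rose and 1 fell, where 8.15% of all 16250 genes tested rose and 6.65% fell. The fall is that of SERPINB2, which entered the test only through its vehicle libraries, where it is high. DESeq2 did not call it (adjusted p = 0.0957). In granulocytes 6 were tested, of which 5 rose and 0 fell, where 24.4% of all 16944 genes tested rose and 24.8% fell. The one not called in granulocytes, SERPINA1, had an unadjusted p of 0.0532 there.

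**Figure D1:**
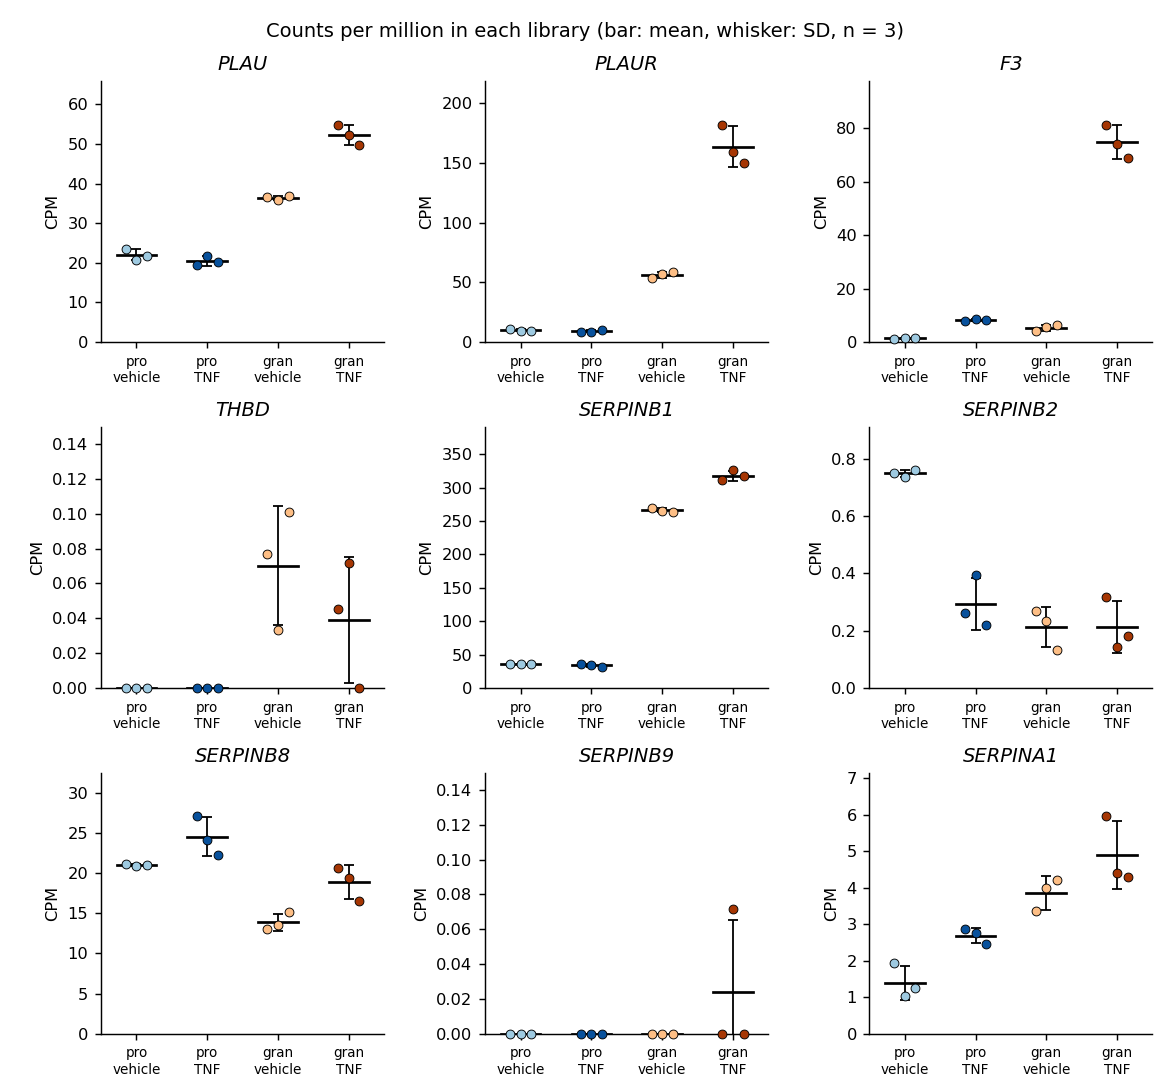
Level of each gene in CPM (linear axis from 0, own scale in each panel) in the 4 groups, where points are libraries, the horizontal bar the mean and the whisker the SD (n = 3; pro, promyelocyte; gran, granulocyte). F3, PLAUR and PLAU stood highest in TNF-α treated granulocytes, SERPINB2 was highest in vehicle promyelocytes at 0.735 to 0.759 CPM, and no library exceeded 0.101 CPM for THBD or 0.0716 CPM for SERPINB9.

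Of the genes tested here, F3 had the largest response in both cell types. In promyelocytes its level was 1.27, 1.40 and 1.41 CPM with vehicle (39, 38 and 41 read pairs) and 7.97, 8.54 and 8.41 CPM with TNF-α (212, 239 and 267 read pairs). Every treated library stood above every vehicle library, and the rise was 6.19-fold (log2 fold change 2.63, SE 0.157, edgeR adjusted p = 1.28e-10). In granulocytes F3 went from 4.23, 5.49 and 6.30 CPM to 81.4, 74.0 and 68.7 CPM. This was a 13.7-fold rise (log2 fold change 3.78, SE 0.0880, edgeR adjusted p = 8.31e-30), again with no overlap between the groups. In bulk RNA, more cells with tissue factor transcripts and more transcript per cell cannot be told apart.

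The F3 responses differed between the cell types by 1.19 on the log2 scale (SE 0.200, edgeR interaction test, adjusted p = 5.86e-05), the granulocyte response being 2.28-fold larger. Each response came from its own experiment, so in this and the later differences between responses, cell type cannot be told apart from experiment. Over all settings and left-out libraries, the log2 fold change of F3 kept within 2.57 to 2.67 in promyelocytes and 3.64 to 3.92 in granulocytes. Endothelial cells and monocytes are the cells best known for inducible tissue factor. Of 5 endothelial markers (CDH5, KDR, TEK, CLDN5, ERG), CDH5 and KDR had no read in either promyelocyte group, and the list summed to 0.136 to 0.316 CPM in TNF-α treated granulocytes against 0.192 to 0.570 CPM with vehicle. In promyelocytes, where ERG was its highest gene, it summed to 2.38 to 3.04 CPM with vehicle and 1.05 to 1.57 CPM with TNF-α. Of 5 monocyte and macrophage markers (CD14, CSF1R, CD163, MRC1, MSR1), only CSF1R reached 1 CPM in any group. That list summed to 49.1 to 51.2 CPM in vehicle and 30.1 to 33.8 CPM in TNF-α treated granulocytes, nearly all of it CSF1R (means of 49.7 and 32.2 CPM). The part of such cells in the F3 values was not tested.

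PLAUR, the urokinase receptor, stood at 11.1, 9.19 and 9.70 CPM in vehicle promyelocytes and 8.76, 8.32 and 10.1 CPM in those given TNF-α. These groups overlapped, and the difference did not pass the test (log2 fold change -0.12, SE 0.114, edgeR adjusted p = 0.564). In granulocytes PLAUR was 53.9, 56.8 and 58.6 CPM with vehicle and 182, 159 and 150 CPM with TNF-α. All treated libraries lay above all vehicle libraries, and the rise was 2.87-fold (log2 fold change 1.52, SE 0.0587, edgeR adjusted p = 9.99e-23). Among the 9 genes PLAUR had the largest difference between the responses, 1.67 on the log2 scale (SE 0.123, edgeR interaction test, adjusted p = 6.64e-11).

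PLAU, the protease that PLAUR binds, moved less. Its level was 23.6, 20.8 and 21.8 CPM in vehicle promyelocytes and 19.5, 21.7 and 20.2 CPM with TNF-α, overlapping ranges that did not pass the test (log2 fold change -0.08, SE 0.0808, edgeR adjusted p = 0.557). In granulocytes it went from 36.7, 35.9 and 36.8 CPM to 54.9, 52.2 and 49.8 CPM, without overlap. The rise was 1.42-fold (log2 fold change 0.51, SE 0.0581, edgeR adjusted p = 2.54e-09), and it exceeded the promyelocyte response by 0.63 on the log2 scale (SE 0.0959, edgeR interaction test, adjusted p = 1.67e-05).

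Levels of PLAUR and PLAU were set against each other per kb of exon. That length is the union of all annotated exons of a gene, which can differ from the length of the transcript expressed. The size of the ratio therefore depends on the annotation, whereas its fold change with TNF-α within a cell type does not. Between the cell types, a difference in the ratio cannot be told apart from the experiment. The level of PLAUR divided by that of PLAU was 0.300 ± 0.0113 (SD, n = 3) in vehicle promyelocytes and 0.295 ± 0.0391 with TNF-α. It was 1.02 ± 0.0445 in vehicle granulocytes and 2.07 ± 0.116 in TNF-α treated granulocytes. The granulocyte ratios were 0.973, 1.05 and 1.05 with vehicle and 2.20, 2.01 and 1.99 with TNF-α and did not overlap, whereas the promyelocyte ranges did. A ratio within a library does not depend on its scaling, and with 3 libraries against 3 an exact permutation test cannot go below a two-sided p of 0.1, so the ratio was not tested.

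**Figure D2:**
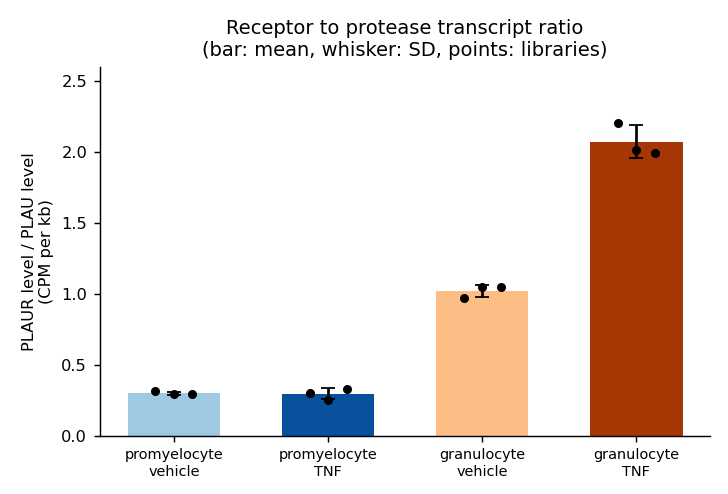
Ratio of the PLAUR level to the PLAU level (both in CPM per kb of exon; linear axis from 0) in the 4 groups, where bars are means, whiskers SDs and points single libraries (n = 3). The mean ratio was 0.300 and 0.295 in promyelocytes with vehicle and TNF-α, 1.02 in vehicle granulocytes and 2.07 in TNF-α treated granulocytes.

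SERPINB1, the granule protease inhibitor, was the most abundant of the 9 genes. In promyelocytes it stood at 36.3, 35.3 and 36.1 CPM with vehicle and 35.7, 35.0 and 30.9 CPM with TNF-α. These ranges overlapped, and TNF-α replicate 3 was the lowest (log2 fold change -0.06, SE 0.0712, edgeR adjusted p = 0.626). In granulocytes the values were 269, 265 and 264 CPM with vehicle and 311, 326 and 317 CPM with TNF-α. The rise of 1.18-fold was small but larger than the spread of the libraries (log2 fold change 0.24, SE 0.0475, edgeR adjusted p = 5.49e-05). The granulocyte response was larger by 0.34 on the log2 scale (SE 0.0788, edgeR interaction test, adjusted p = 0.00189).

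SERPINB8, the furin inhibitor, had higher values with TNF-α in both cell types. In promyelocytes it was 21.2, 20.9 and 21.0 CPM with vehicle and 27.1, 24.1 and 22.3 CPM with TNF-α. The groups did not overlap, but the difference of 0.24 on the log2 scale (SE 0.0831) missed the threshold (edgeR adjusted p = 0.0561). With single libraries left out, it passed in 1 of 6 fits, without TNF-α replicate 3 (0.31, edgeR adjusted p = 0.0190). The edgeR adjusted p of those fits reached 0.257. Of 6 other settings, it passed in 1, without the filter on low counts (edgeR adjusted p = 0.0435). In granulocytes SERPINB8 rose from 13, 13.6 and 15.1 CPM to 20.7, 19.4 and 16.5 CPM without overlap, 1.34-fold (log2 fold change 0.43, SE 0.0876, edgeR adjusted p = 9.54e-05). The responses differed by 0.22 (SE 0.126), which did not pass the interaction test (edgeR adjusted p = 0.216). Of 5 other settings, the difference passed in 1, with GC content and length trends removed (0.33, edgeR adjusted p = 0.0371). It passed in 0 of 12 fits with single libraries left out.

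SERPINA1, the secreted elastase inhibitor, was the other gene that rose in promyelocytes. It was counted 59, 28 and 36 times in vehicle libraries (1.93, 1.03 and 1.24 CPM) and 76, 77 and 78 times in treated ones (2.86, 2.75 and 2.46 CPM). All treated libraries stood above the vehicle libraries, of which the first was the highest, and the rise was 1.94-fold (log2 fold change 0.95, SE 0.236, edgeR adjusted p = 0.00824). Without the second vehicle library the call was lost (log2 fold change 0.78, edgeR adjusted p = 0.0506). In granulocytes it stood at 3.35, 4.00 and 4.22 CPM with vehicle and 5.96, 4.40 and 4.29 CPM with TNF-α, groups that did not overlap. That difference missed the threshold (log2 fold change 0.32, SE 0.158, edgeR adjusted p = 0.0969) and was 0.16 without TNF-α replicate 1 (edgeR adjusted p = 0.483). The responses did not pass the interaction test (-0.59, SE 0.287, edgeR adjusted p = 0.142). Of 12 fits with a single library left out, 1 passed, without the first promyelocyte vehicle library (-0.90, edgeR adjusted p = 0.0244). Of 5 hepatocyte markers (ALB, APOA1, TTR, CYP3A4, TAT), TTR, CYP3A4 and TAT had no read in any library, and the list summed to at most 0.392 CPM.

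In many cell types SERPINB2 is known as a gene that TNF-α induces, but here it had few reads. Promyelocytes gave 23, 20 and 22 read pairs with vehicle (0.751, 0.735 and 0.759 CPM) and 7, 11 and 7 with TNF-α (0.263, 0.393 and 0.221 CPM). The groups did not overlap, and SERPINB2 was called lower (log2 fold change -1.33, SE 0.401, edgeR adjusted p = 0.0296). It entered the test only through its vehicle libraries, where it is high. The adjusted p was 0.0957 by DESeq2 and lay between 0.0400 and 0.108 when single libraries were left out, below the threshold only without the second treated library. SERPINB10, its overlapping neighbour, summed to 587 read pairs with vehicle and 521 with TNF-α and was not called (log2 fold change -0.15, SE 0.130, edgeR adjusted p = 0.520). In granulocytes SERPINB2 had 7, 7 and 4 read pairs with vehicle and 7, 4 and 4 with TNF-α, overlapping ranges too low for the test.

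Beside the promyelocyte values, the summed promyelocyte markers were lower with TNF-α (6060 to 6960 CPM, against 7320 to 8140 CPM with vehicle), mainly through MPO at 5370 and 6420 CPM. The summed granulocytic markers were higher (237 to 255 CPM, against 145 to 153 CPM), mainly through CYBB at 216 and 113 CPM. Both are far from the granulocyte libraries, and their part in the promyelocyte results was not tested. In granulocytes given TNF-α the promyelocyte list summed to 2140 to 2350 CPM, a range that overlapped that of vehicle, and the granulocytic list to 3410 to 3480 CPM, below all vehicle libraries.

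Thrombomodulin and the granzyme B inhibitor were not detected above the floor. THBD had 0 read pairs in all 6 promyelocyte libraries, which allows a level of up to 0.113 CPM in the shallowest of them. In granulocytes it had 2, 1 and 3 read pairs with vehicle and 1, 2 and 0 with TNF-α. SERPINB9 had 0 read pairs in every library but the second TNF-α treated granulocyte library, which had 2. No TNF-α response of these genes was detectable at this depth.

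**Figure D3:**
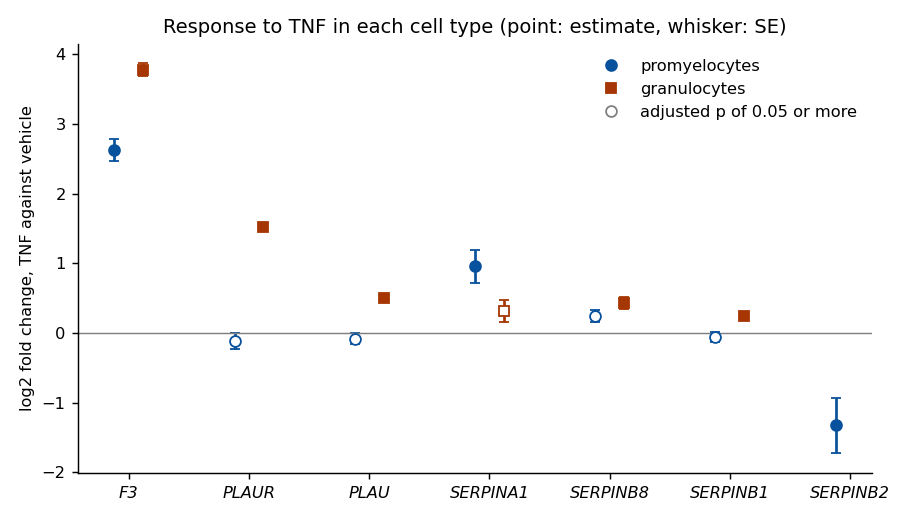
Log2 fold change of TNF-α against vehicle (vertical axis) for the 7 genes tested, fitted separately in promyelocytes (circles) and granulocytes (squares), where whiskers are SEs and open symbols did not pass the test. F3 lay at 2.63 and 3.78, PLAUR at -0.12 and 1.52, PLAU at -0.08 and 0.51, and SERPINB2, tested in promyelocytes only, at -1.33.

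Of the 7 genes tested for a difference between the responses, 4 had a larger response in granulocytes (F3, PLAUR, PLAU and SERPINB1) and 0 a smaller one. Over all 18124 genes tested in this way, 14.1% were called in the first direction and 9.88% in the second.

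Levels between vehicle granulocytes and vehicle promyelocytes were compared as part of the same question, although cell type and experiment cannot be told apart in them. Here 35.7% of all 18124 genes tested were called higher and 36.3% lower, and 5 of the 7 genes tested were called higher and 2 lower. These comparisons use the same vehicle libraries as the responses. SERPINB1 was higher in vehicle granulocytes by 2.89 on the log2 scale (SE 0.0579, edgeR adjusted p = 1.35e-24). Its means were 35.9 ± 0.548 and 266 ± 2.63 CPM (SD, n = 3). PLAUR was higher by 2.49 (SE 0.0854, edgeR adjusted p = 1.39e-19), from 10.0 ± 1.01 to 56.5 ± 2.39 CPM. The differences of F3, SERPINA1 and PLAU were 1.98, 1.45 and 0.72. SERPINB2 was lower, with a log2 difference of -1.81 (SE 0.444, edgeR adjusted p = 0.000705), but entered the test only through the vehicle promyelocytes, where it is high. SERPINB8 differed by -0.60 (SE 0.0898, edgeR adjusted p = 1.36e-06). The proteases that SERPINB1 inhibits stood the other way: PRTN3 (proteinase 3) had a mean of 1153 CPM in vehicle promyelocytes and 178 CPM in vehicle granulocytes, and CTSG (cathepsin G) had 62.4 and 19.4 CPM. ELANE (elastase) was low, with a mean of 1.79 CPM in vehicle promyelocytes and, below the floor, 0.0222 CPM in vehicle granulocytes.

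On the level per kb of exon, which rests on the union of annotated exons, SERPINB1 was first in each of the 4 groups. It stood at 11.6 and 10.9 CPM per kb in promyelocytes and 86.1 and 103 CPM per kb in granulocytes with vehicle and TNF-α. In vehicle promyelocytes it was followed by PLAU (7.48), SERPINB8 (3.58), PLAUR (2.25), F3 (0.474), SERPINA1 (0.286) and SERPINB2 (0.272 CPM per kb). The ranges of SERPINA1 and SERPINB2 overlapped, whereas the other neighbours in this order did not. With TNF-α, F3 reached 2.89 CPM per kb and passed PLAUR at 2.04. In vehicle granulocytes PLAUR (12.7) and PLAU (12.4 CPM per kb) overlapped, ahead of SERPINB8 (2.37), F3 (1.86) and SERPINA1 (0.787). With TNF-α, F3 at 26.0 CPM per kb stood behind PLAUR at 36.7 and ahead of PLAU at 17.7.

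**Figure D4:**
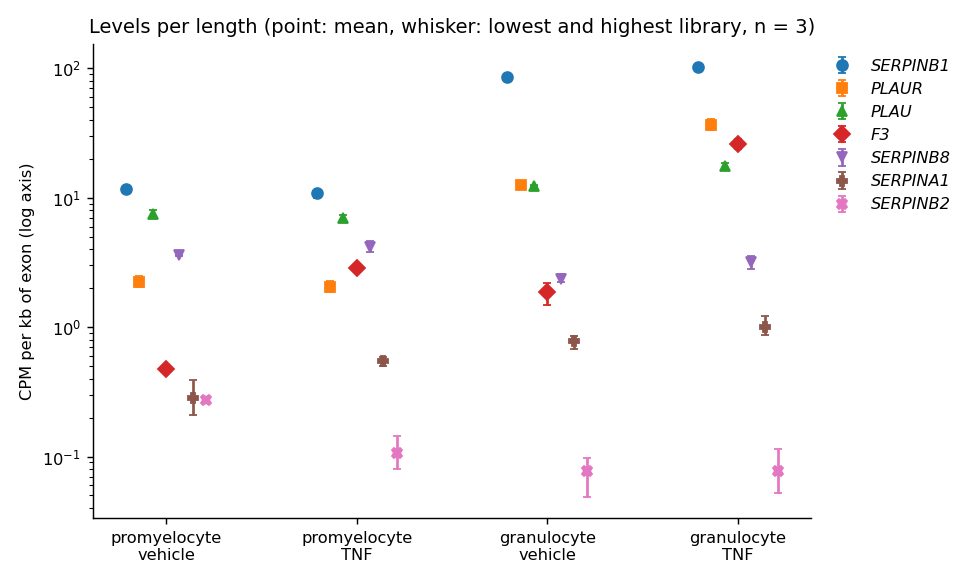
Level per length (CPM per kb of exon, log axis) of 7 genes in the 4 groups, where points are means and whiskers run from the lowest to the highest library (n = 3); THBD and SERPINB9, at or below the floor, are left out. SERPINB1 is highest in each group, and F3 goes from 0.474 to 2.89 CPM per kb with TNF-α in promyelocytes and from 1.86 to 26.0 CPM per kb in granulocytes.

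Among the 16 genes listed for plasminogen activation, 10 were tested in promyelocytes, of which 0 rose and 1 fell (SERPINB2). Over all genes tested there, 8.15% rose and 6.65% fell. SERPINB2 entered that test only through its vehicle libraries, where it is high. In granulocytes 8 were tested, of which 6 rose and 1 fell, where 24.4% of all genes tested rose and 24.8% fell. Their median log2 fold change was 0.39, against -0.0047 over all genes tested. Beside PLAUR and PLAU, the genes that rose were PLGRKT, a plasminogen receptor (log2 fold change 0.46, SE 0.106, edgeR adjusted p = 0.000397), MRC2, the collagen receptor that associates with the urokinase receptor (0.32, or 0.19 with GC content and length trends removed, edgeR adjusted p = 6.56e-06 and 0.000328), and ENO1, an enolase that binds plasminogen at the cell surface (0.26, edgeR adjusted p = 7.5e-05). SERPINF2, the plasmin inhibitor, also passed (1.26, SE 0.459, edgeR adjusted p = 0.0217), at means of 0.265 and 0.652 CPM. It entered the test only through the TNF-α treated libraries, where it is high. With single libraries left out, its log2 fold change ranged from 0.93 to 1.98 and its edgeR adjusted p from 0.00377 to 0.136. SERPINF2 passed in only 2 of those 6 fits. The fall was that of SERPINE2, a protease nexin (-0.21, SE 0.0773, edgeR adjusted p = 0.0212).

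Of the 37 genes listed for coagulation and its inhibitors, 12 were tested in promyelocytes, of which F3 rose and F2RL3, the thrombin receptor PAR4, fell (-1.15, SE 0.268, edgeR adjusted p = 0.00517). Both counts were near the shares over all genes tested there, of which 8.15% rose and 6.65% fell. In granulocytes 12 were tested, of which 3 rose and 5 fell, so the share that rose was near that of all genes tested (24.4%), and 24.8% of all genes fell. Their median log2 fold change was -0.43, against -0.0047 over all genes tested. F2RL3 fell there too, from 16.4 ± 1.15 to 8.26 ± 0.844 CPM (SD, n = 3; edgeR adjusted p = 3.71e-11), and PROCR, the endothelial protein C receptor, had means of 2.24 and 1.33 CPM (-0.76, edgeR adjusted p = 0.0107). F13A1, a subunit of the fibrin crosslinking factor XIII (-0.63, edgeR adjusted p = 0.0362), F8, the factor VIII gene (-0.60, edgeR adjusted p = 0.0240), and MCFD2 (-0.33, edgeR adjusted p = 5.31e-07) were the other falls. Beside F3, ANXA5, which binds phosphatidylserine, was higher by 0.28 (edgeR adjusted p = 1.86e-05) and LMAN1 by 0.17 (edgeR adjusted p = 0.0108). LMAN1 and MCFD2 form the receptor that carries factors V and VIII out of the endoplasmic reticulum. SERPINF2, ANXA5, LMAN1, F8 and MCFD2 were named after their values were seen. By DESeq2 the calls of SERPINF2, SERPINE2, PROCR, F13A1 and F8 were lost, with adjusted p of 0.106, 0.0915, 0.0508, 0.123 and 0.0935.

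The shares of all genes tested that rose and fell, to be read beside the next counts, were 8.15% and 6.65% in promyelocytes and 24.4% and 24.8% in granulocytes. Of the 13 clade B serpins 5 had a read in any library. Of these 4 were tested in promyelocytes, of which 1 fell (SERPINB2), and 2 in granulocytes, where both rose (SERPINB1 and SERPINB8). SERPINB2 entered the promyelocyte test only through its vehicle libraries, where it is high. Of 23 serpins of other clades 4 were tested in each cell type. In promyelocytes SERPINA1 rose, and in granulocytes SERPINF2 was called higher and SERPINE2 lower. Both granulocyte calls were lost by DESeq2 (adjusted p of 0.106 and 0.0915), and SERPINF2 entered the test only through the TNF-α treated libraries. Of 7 proteases inhibited by these serpins, 5 were tested in promyelocytes, where PRTN3 (-0.30, SE 0.0739, edgeR adjusted p = 0.00785) and CTSG (-0.25, SE 0.0817, edgeR adjusted p = 0.0414) fell. PRTN3 had means of 1153 and 920 CPM and CTSG of 62.4 and 51.4 CPM. Without the first treated promyelocyte library CTSG lost its call (-0.15, edgeR adjusted p = 0.198), likewise without the first vehicle library (-0.21, 0.168) or the second (-0.26, 0.105), and PRTN3 lost it without the second treated library (-0.25, 0.0594). With GC content and length trends removed, PRTN3 stood at -0.19 (edgeR adjusted p = 0.0320). Among the 4 tested in granulocytes PLAU rose. PRTN3 and CTSG are also among the promyelocyte markers whose sum was lower with TNF-α.

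The genes whose pattern over the 12 libraries was most like each of these were found by the root-mean-square difference of centred log2(CPM + 0.5) values among 14878 genes. For F3 they were FFAR2, a receptor for short-chain fatty acids (0.320), and C3, complement component C3 (0.369). For PLAUR they were PHLDA1 (0.229) and RIT1, a small GTPase (0.275), and for PLAU they were SELENOW, a selenoprotein (0.0636), and WARS1, a tryptophanyl-tRNA synthetase (0.0876). SERPINB1 was closest to CD53, a leukocyte tetraspanin (0.0790), and FGD2 (0.0983), SERPINB8 to USP10 (0.0845) and PDHX (0.0918), and SERPINA1 to IRF2 (0.195) and LPXN (0.209). These are descriptions over 12 libraries in 4 groups.

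**Figure D5:**
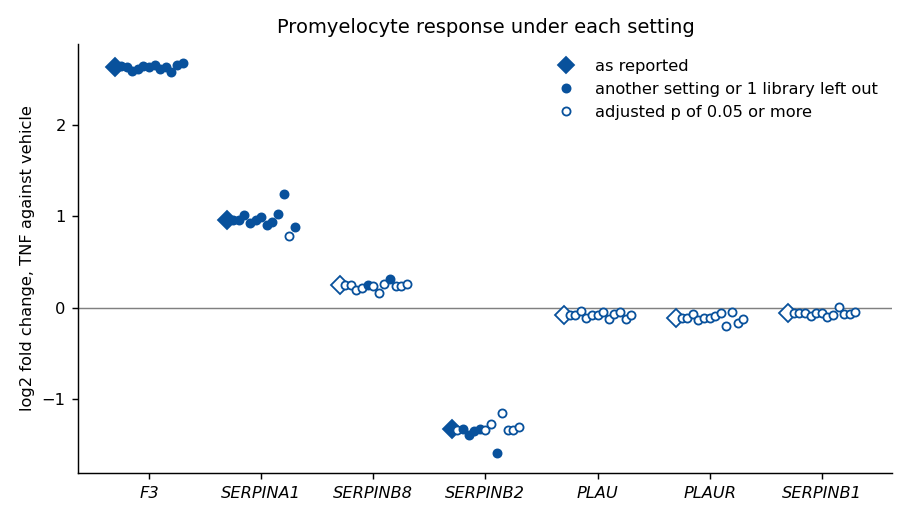
Log2 fold change of TNF-α against vehicle in promyelocytes (vertical axis) for the 7 genes tested, where the diamond is the value as reported and circles are the values under other settings or with 1 library left out; open symbols did not pass the test. F3 stayed between 2.57 and 2.67 and SERPINA1 between 0.78 and 1.25, and SERPINB2, between -1.59 and -1.15, passed in only some of the fits.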

How the data were processed

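RNA of 12 HL-60/S4 libraries was sequenced by the authors as paired ends after removal of ribosomal RNA. The authors deposited raw counts of read pairs per gene, made with STAR 2.5.3a and featureCounts 1.5.2 (GENCODE 27, hg38, strand option 2), without normalization. Groups came from the sample titles. Gene symbols were matched from a later annotation for 57532 of 58288 identifiers.

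Counts were tested with edgeR 4.0.16 in R 4.3.3: TMM, filterByExpr (minimum count 10, minimum total 15), the quasi-likelihood test, a prior count of 0.125 and Benjamini-Hochberg adjustment over all genes tested, with a threshold of 0.05. Each cell type was fitted alone. The difference between the responses and the levels between vehicle groups came from 1 fit of all 12 libraries. SEs were derived from the F statistic. Levels are CPM on TMM library sizes of all 12 libraries.

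The 9 genes and the gene and marker lists were chosen with earlier results of these data known. Named from the lists were, with a mean of at least 1 CPM in a group, up to 3 called genes per list and cell type with the largest change, and for each of the 9 genes with a mean of at least 1 CPM the 2 with the most similar pattern. SERPINB10 and the genes said to be named later were added after values were seen. Alternatives were DESeq2 size factors, no filter, DESeq2 1.42.0, a replicate block, other sets of libraries in the fit and leaving out each library, and, added after the data were seen, removal of GC content and length trends. The procedure was tested on simulated data. Without a GC trend, 183 to 198 of 200 changed genes were recovered, with 8 to 11 false calls. In each simulation, 200 well-counted genes were changed, all by more than the rise of SERPINB1 in granulocytes, with the same spread for every gene. Recovery of genes with few reads, such as SERPINB2 and SERPINF2, or of smaller changes was therefore not measured. Far more than 200 genes were called in each comparison of the data. With a GC trend added to the simulated TNF-α granulocyte libraries, the uncorrected fit made 8399 false calls, against 11 with GC content and length trends removed. That trend was set for the simulation and not measured in these libraries. The fits reported carry no correction for GC content or length. Promoters came from RefSeq (GRCh38.p14). Plots were drawn with matplotlib 3.10.9.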

Additional observations from a re-analysis of the deposited data

Results flagged for a closer look

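The responses to TNF-α differed between granulocytes and promyelocytes by the interaction test in the fit of all 12 libraries. The granulocyte minus promyelocyte difference on the log2 scale was 1.67 for PLAUR, 1.19 for F3, 0.63 for PLAU and 0.34 for SERPINB1, with edgeR adjusted p of 6.64e-11, 5.86e-05, 1.67e-05 and 0.00189. All 4 kept their direction and their call under every setting and with each library left out. Among the other genes of the pathway lists, it was 0.50 for MRC2 (edgeR adjusted p = 0.000161), 0.48 for PLGRKT (0.0153), 0.47 for PRTN3 (0.00204), 0.33 for ENO1 (0.00357), 0.26 for ANXA5 (0.0272) and -0.24 for MCFD2 (0.0259). Those of ANXA5 and MCFD2 lost their call with some single libraries left out, with edgeR adjusted p of up to 0.0990 without granulocyte vehicle replicate 1 and 0.0834 without granulocyte TNF-α replicate 3. The call of ANXA5 was lost by DESeq2 (0.20, adjusted p = 0.0952), with DESeq2 size factors (0.21, edgeR adjusted p = 0.0817) and without the filter on low counts (0.18, edgeR adjusted p = 0.210), that of PRTN3 with GC content and length trends removed (0.18, edgeR adjusted p = 0.151) and that of PLGRKT without the filter on low counts (0.40, edgeR adjusted p = 0.0896). With GC content and length trends removed, the difference fell to 0.26 for MRC2 (edgeR adjusted p = 0.00599) and 0.21 for ENO1 (0.0167). What lies behind these differences was not tested, and cell type cannot be told apart from experiment in them.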

How the results depend on the processing

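The counts of genes called in granulocytes (5 higher, 0 lower) and between vehicle groups (5 higher, 2 lower) were the same under every setting and with each library left out. In promyelocytes the number called higher ranged from 1 to 3 with single libraries left out (1 without the second vehicle library), and the number called lower from 0 to 1. That number was 0 with DESeq2 and 0 with the replicate block, where SERPINB2 had an adjusted p of 0.0513. For the difference between the responses, the number called lower ranged from 0 to 1, the 1 being SERPINA1 without the first promyelocyte vehicle library. SERPINB1 in promyelocytes, which was not called, ranged from -0.10 to 0.0051 with single libraries left out, above 0 without TNF-α replicate 3. The cause was not tested.

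Libraries with the same replicate number did not deviate together, with residual correlations between -0.146 and -0.0129, so the numbers do not pair the libraries. The block also took away the calls of F13A1 in granulocytes (adjusted p = 0.0522) and of the difference for ANXA5 (0.0596) and MCFD2 (0.0763) and changed no other call of a gene named here. With single libraries left out, these calls in granulocytes were lost, with the highest adjusted p of each: F8 (0.179) and SERPINF2 (0.136) without vehicle replicate 2, SERPINE2 (0.170) also without vehicle replicate 2, PROCR (0.111) without vehicle replicate 1, and LMAN1 (0.107) and F13A1 (0.106) without vehicle replicate 3. Of the 6 such fits for each gene, the call held in 1 for F13A1 and in 2 for SERPINF2. For F8, SERPINE2, PROCR and LMAN1 it held in 4. The call of F8 was also lost in the fit of all 12 libraries (edgeR adjusted p = 0.0587). Low counts limit THBD, SERPINB9, SERPINB2 and SERPINF2.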
